A study of Macaca mulatta with 12 samples.

Results

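Cadherins and protocadherins were described across cultured skin fibroblasts and 3 embryonic stem (ES) cell lines of the rhesus macaque. They were the genes whose array annotation gave exactly 1 symbol to a probe set and whose symbol was CDH followed by a digit or PCDH. This gave 39 genes of the 14132 genes with such a probe set, and where a gene had several, the one brightest on average across the 12 arrays stands for it. A probe set is a group of short oligonucleotides on the array that together report 1 transcript, and values are on the log2 scale, on which a difference of 1 is a 2-fold difference. The 39 genes had 65 such probe sets in all: 16 genes had several and 23 had 1. N-cadherin (CDH2), the cadherin most often named for mesenchymal cells, is not analysed here.

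Cadherins are cell surface proteins that hold neighbouring cells together in the presence of calcium. Classical cadherins bind the same kind of cadherin on the next cell through their outer domains and are tied to the actin cytoskeleton inside the cell by catenins. Type I and type II classical cadherins differ in their outer domains, and atypical members such as CDH13 lack the usual cytoplasmic tail. Protocadherins form the largest branch: the alpha and beta genes lie in clusters of neighbouring genes and are best known for giving neurons a surface identity, while the non-clustered ones act in tissue patterning and cell sorting. Epithelial cells that become mesenchymal replace one set of cadherins with another, which is known as cadherin switching, and ES cells grow as tight, epithelium-like colonies whereas fibroblasts are mesenchymal.

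The fibroblasts were grown from back skin of an adult male aged 9 years and served as the somatic control, with replicates A, B and C. ORMES-22 is a biparental female ES line from an embryo fertilised in vitro, sampled at passages 18, 21 and 19. rPESC-2 is a heterozygous female parthenogenetic ES line, made from an egg without a sperm and with 2 different maternal alleles at many loci, sampled at passages 16, 10 and 16. ORMES-9 is described as a homozygous female parthenogenetic line and was sampled at passages 13, 14 and 16; its source and treatment labels instead name a blastocyst fertilised in vitro, and it is called by its line name here. The ES lines were grown on mitotically inactivated mouse embryonic fibroblast feeder cells, and RNA came from colonies picked as undifferentiated. Each ES group is 1 line, so genotype and line cannot be told apart, and the fibroblasts differ from the ES lines in sex as well as in cell type and medium. The p-values rest on the spread between cultures within a group, pooled over the 4 groups, and not on a spread between lines. The study set the parthenogenetic lines against the biparental line and against each other, with fibroblasts as a somatic reference. All comparisons below share arrays.

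The 12 array medians lay between 5.01 and 5.10. Pearson correlations over probe sets were 0.9957 to 0.9968 among the fibroblast arrays, 0.9844 to 0.9928 in ORMES-22, 0.9937 to 0.9950 in rPESC-2 and 0.9948 to 0.9956 in ORMES-9. The ORMES-22 arrays were thus the least alike, with replicate A the farthest from the other two. That array correlated more with the rPESC-2 arrays (0.9882 to 0.9896) than with ORMES-22 replicates B and C (0.9855 and 0.9844). Of 7 measured fibroblast markers, 5 were called higher in fibroblasts by the rule given below, beside 12.9% of all genes. Of the 5 probe sets of a further one, decorin (DCN), 4 were higher there by 7.91 to 8.55. Of 7 measured ES markers, 5 were called lower in fibroblasts, led by POU5F1, beside 14.5% of all genes. NANOG, read by 1 probe set, was higher in fibroblasts by 1.32, against its label as an ES marker. ZFP42 was not called, with group means of 4.38 to 4.53 over fibroblasts and ES lines. LUM and FAP, extracellular matrix and surface markers of fibroblasts, were at the level of the bacterial control probe sets in all 3 ES lines, whereas the line means of COL1A1 (10.40 to 11.30), COL1A2 (8.23 to 8.57), COL3A1 (6.42 to 6.96) and THY1 (9.13 to 10.06) were well above it.

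The threshold for a detectable level was the 90th percentile of the 42 bacterial control probe sets, 4.26. By group means, 27 of the 39 genes were above it in fibroblasts and 28 in each of the ES lines, 33 in at least 1 group and 6 in none. At least 1 ES line mean was above the threshold for 31 of the 39 genes, beside 12458 of all 14132 genes. For the other counts the share of all genes was not computed. The 6 at or below it everywhere were CDH17, a cadherin of the intestinal lining, CDH19, PCDH15, a protein of hair cell tip links, PCDH8, PCDHB1 and PCDHB3. A gene was called higher or lower where its limma adjusted p was below 0.05 and it differed 2-fold or more, with Benjamini-Hochberg adjustment over all 52766 probe sets. By that rule 10 of the 39 genes were called in at least 1 of the 4 comparisons and 29 in none. The share of all genes called in at least 1 comparison was not computed, and shares are given by comparison below.

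**Figure D1:**
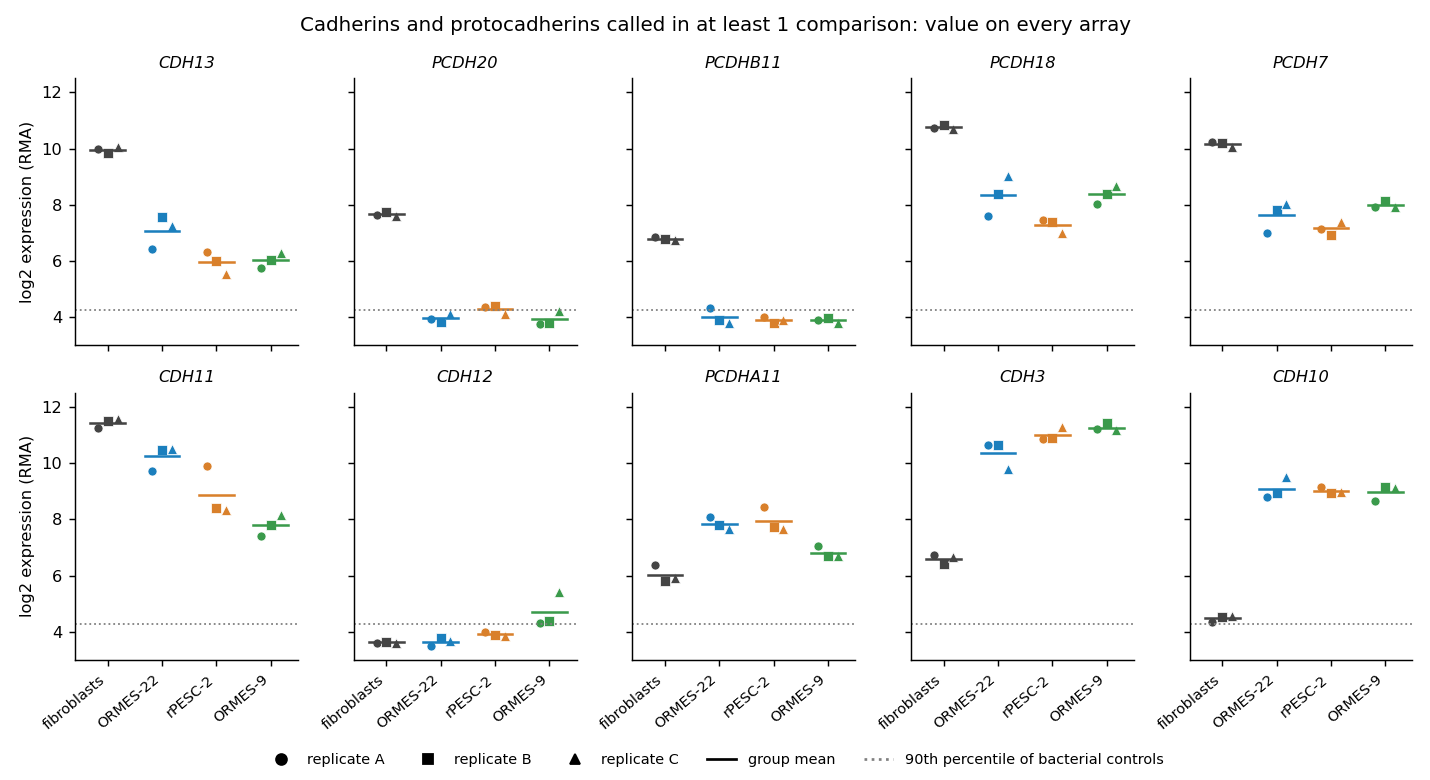
Log2 expression (RMA, vertical axis) of the 10 cadherins and protocadherins called in at least 1 comparison, by group; points are arrays, marked by replicate, horizontal lines are group means (n = 3) and the dotted line is the 90th percentile of bacterial controls. CDH3 and CDH10 are high in every ES array and low in every fibroblast array, CDH11 falls in steps from fibroblasts to ORMES-9, and PCDHA11 is lower in the 3 ORMES-9 arrays than in the other 6 ES arrays.

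The share of cadherins called between fibroblasts and ES cells was near or below that of all genes, and the called genes differed in both directions. CDH3 and CDH10 were 19.5-fold and 23.4-fold lower in fibroblasts than in the mean of the 3 ES lines, while CDH11, CDH13, PCDH7 and PCDH18 were 5.53-fold to 12.2-fold higher. PCDH20 and PCDHB11, whose ES means were at background, were at least 10.4-fold and 5.79-fold higher; such bounds set every array of the dim group to at least the background level defined above. Of the 39 genes, 6 were higher in fibroblasts, where 12.9% of all genes were, and 3 were lower, where 14.5% of all genes were. The median difference of the 39 genes was -0.14 against -0.15 over all genes. In bulk RNA, fewer cells of a type and less RNA per cell cannot be told apart.

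CDH3, or P-cadherin, is a type I classical cadherin of epithelia that acts early in embryos and in the basal layer of stratified tissues. Its fibroblast values were 6.73, 6.40 and 6.67, against 10.66, 10.65 and 9.80 in ORMES-22, 10.87, 10.89 and 11.30 in rPESC-2 and 11.21, 11.42 and 11.16 in ORMES-9. No fibroblast array overlapped the ES arrays, and the fibroblast values stood above the background level. The difference was -4.28 (SE 0.17, limma adjusted p = 4.5e-10), or 19.5-fold, and the second CDH3 probe set gave -3.93. That probe set is named for the same target as the first and carries a suffix for shared sequence, so it is not an independent reading. Of the other type I members, CDH4, or R-cadherin, which is best known in retina and brain, was lower in fibroblasts by less than 2-fold (-0.90, limma adjusted p = 4.9e-07). CDH15, the muscle cadherin, differed by -0.14 (limma adjusted p = 0.12).

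CDH10 is a type II cadherin known mainly from brain. Its values were 4.36, 4.51 and 4.54 in fibroblasts, close to background, against 8.81, 8.95 and 9.49 in ORMES-22, 9.14, 8.92 and 8.96 in rPESC-2 and 8.66, 9.16 and 9.10 in ORMES-9. The 9 ES arrays had a range of 0.84 and all stood far above the fibroblasts. This was the largest difference of the 39 genes in either direction, -4.55 (SE 0.14, limma adjusted p = 4.2e-11), or 23.4-fold. Only 1 probe set reads CDH10.

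CDH11, or OB-cadherin, is the type II cadherin of mesenchymal cells and of bone-forming cells. Fibroblast values were 11.24, 11.51 and 11.56, ORMES-22 values were 9.73, 10.47 and 10.52, rPESC-2 values were 9.90, 8.39 and 8.34 and ORMES-9 values were 7.42, 7.79 and 8.14. Fibroblasts were above every ES array, but the ES lines were well above background and spread over 3.10. Against the mean of the ES lines the difference was 2.47 (SE 0.30, limma adjusted p = 1.5e-05), or 5.53-fold; against ORMES-22 alone it was 1.19 (limma adjusted p = 0.015). The other CDH11 probe sets gave 3.23 and 4.21 against the mean of the ES lines, both called.

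The other 9 type II members were not called in this comparison. CDH5, or VE-cadherin, the cadherin of endothelial junctions, read 4.66, 4.46 and 4.46 in fibroblasts and 5.17 to 5.72 over the ES arrays, a difference of -0.97 (SE 0.11, limma adjusted p = 9.1e-06) just under 2-fold, and its second probe set gave -0.27. Of 7 measured endothelial markers, TEK (-4.25) and VWF (-1.06) were called lower in fibroblasts, PECAM1 (1.37) was called higher and 4 were not called. Of all genes 14.5% were lower and 12.9% higher. CDH9 differed by -0.59 (limma adjusted p = 0.00053), CDH12 by -0.47 (limma adjusted p = 0.041), and CDH7, CDH8, CDH18, CDH20 and CDH22, which are known mostly from nervous tissue, by -0.22 to 0.02.

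CDH13, or T-cadherin, is held to the membrane by a lipid anchor and is known as an adiponectin receptor on vascular cells. It read 9.98, 9.86 and 10.04 in fibroblasts, 6.42, 7.56 and 7.24 in ORMES-22, 6.33, 5.99 and 5.54 in rPESC-2 and 5.74, 6.03 and 6.29 in ORMES-9. Every fibroblast array exceeded every ES array by at least 2 log2 units, and the difference was 3.61 (SE 0.22, limma adjusted p = 2.1e-08), or 12.2-fold. Its second probe set gave 4.53. Of the other atypical members, CDH23, a hair cell tip-link protein, was higher in fibroblasts by 0.95 (SE 0.06, limma adjusted p = 6.3e-08), under 2-fold, but its other 3 probe sets gave -0.35 to -0.32, so the direction depends on the probe set. CDH16, the kidney cadherin, gave -0.16, CDH26 0.07 and CDH17 0.02.

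**Figure D2:**
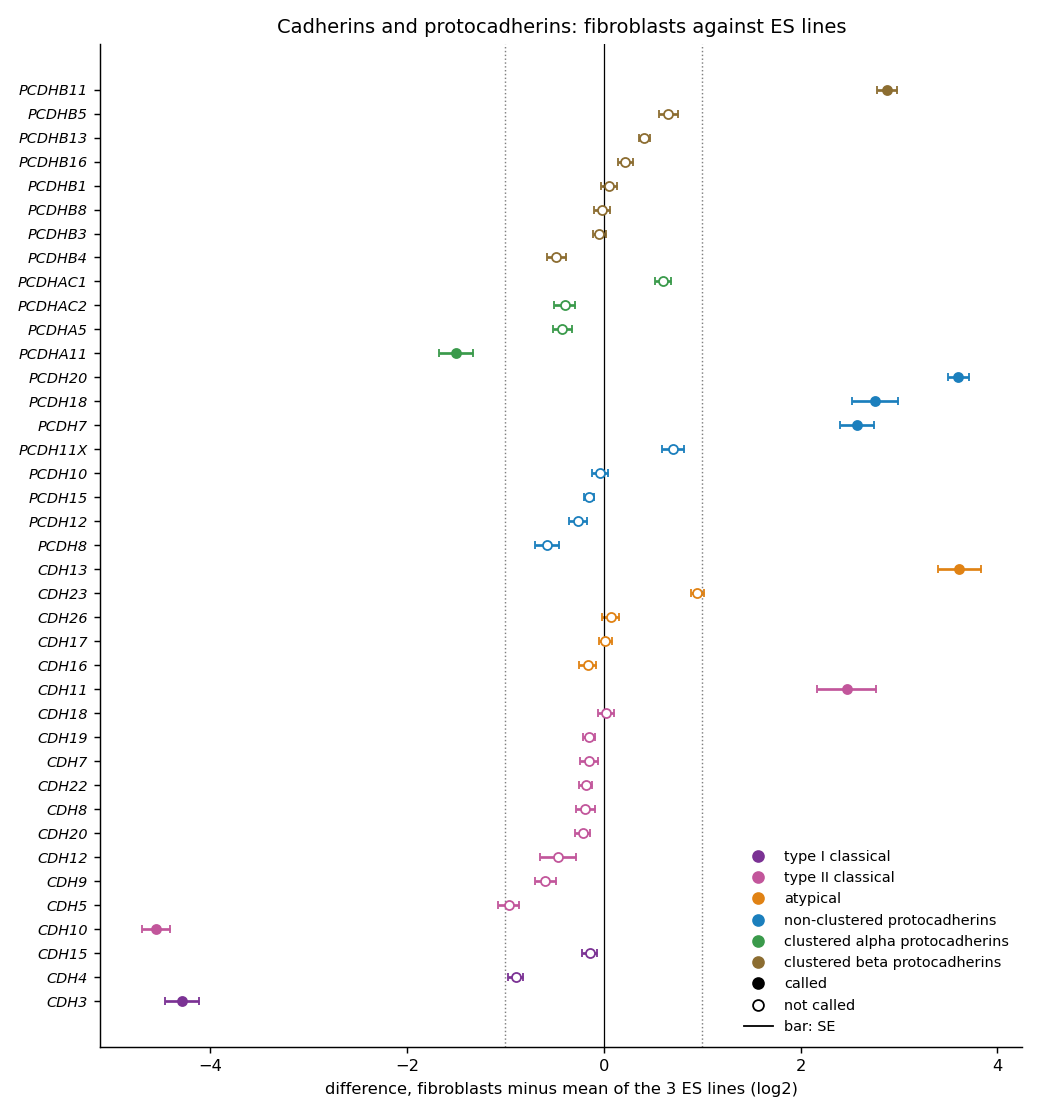
Difference between fibroblasts and the mean of the 3 ES lines (log2, horizontal axis) for each of the 39 genes, coloured by structural class; bars are the SE of the limma fit, filled points are called, and dotted lines mark 2-fold. The 6 called genes on the right lie between 2.47 and 3.61 and the 3 on the left between -4.55 and -1.50, with the rest within 1 of 0.

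Among the non-clustered protocadherins, 3 of 8 were called higher in fibroblasts and none lower, beside 12.9% and 14.5% of all genes; the class itself was not tested. PCDH7, first known as BH-protocadherin of brain and heart, read 10.23, 10.21 and 10.07 in fibroblasts, 7.01, 7.82 and 8.03 in ORMES-22, 7.15, 6.93 and 7.40 in rPESC-2 and 7.93, 8.15 and 7.92 in ORMES-9. The difference was 2.57 (SE 0.17, limma adjusted p = 6.5e-08), or 5.96-fold, and its second probe set stayed at background in all groups. PCDH18 read 10.74, 10.83 and 10.69 in fibroblasts, 7.59, 8.38 and 9.03 in ORMES-22, 7.47, 7.40 and 6.99 in rPESC-2 and 8.02, 8.40 and 8.69 in ORMES-9. Fibroblasts stood above all 9 ES arrays, by 2.76 against the mean of the lines (SE 0.24, limma adjusted p = 6.2e-07), or 6.75-fold, and by 3.05 with the second probe set.

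PCDH20 read 7.65, 7.76 and 7.59 in fibroblasts and 3.77 to 4.41 over the 9 ES arrays, with line means of 3.96, 4.30 and 3.93 beside the background level of 4.26. The fitted difference was 3.60 (SE 0.11, limma adjusted p = 2.5e-11), at least 10.4-fold. PCDH11X, an X-linked protocadherin of brain, was higher in the male fibroblasts by 0.71 (limma adjusted p = 0.00017), under 2-fold, whereas its other probe sets gave -0.78 and -1.43, the latter called, so its direction depends on the probe set. PCDH12, an endothelial protocadherin, gave -0.26, PCDH10 -0.04 and PCDH8 and PCDH15 stayed at background.

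Of the 12 clustered genes 1 beta gene was called higher and 1 alpha gene lower, beside 12.9% and 14.5% of all genes. The other 10 were not called. Among 8 beta genes PCDHB11 was higher in fibroblasts, at 6.86, 6.80 and 6.73 against 3.77 to 4.32 over the ES arrays, a fitted difference of 2.88 (SE 0.10, limma adjusted p = 1.5e-10), at least 5.79-fold because all 3 ES line means were under background. PCDHB5 was higher by 0.65 (limma adjusted p = 7.5e-05) and PCDHB13 by 0.41 (limma adjusted p = 3.8e-05), both under 2-fold. PCDHB4 was lower by less than 2-fold (-0.48, limma adjusted p = 0.00082), PCDHB16 was higher by 0.22 (limma adjusted p = 0.028), and PCDHB8 gave -0.02. The beta genes are similar in sequence, and the PCDHB8 and PCDHB16 probe sets carry the suffixes for shared sequence, so the gene of origin of those probe sets is uncertain.

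Of 4 alpha genes PCDHA11 was lower in fibroblasts, at 6.37, 5.79 and 5.92, against 8.07, 7.79 and 7.64 in ORMES-22, 8.43, 7.71 and 7.67 in rPESC-2 and 7.04, 6.68 and 6.69 in ORMES-9. No fibroblast array overlapped the ES arrays, ORMES-22 and rPESC-2 overlapped each other, and the difference was -1.50 (SE 0.17, limma adjusted p = 9.4e-06), or 2.83-fold. Its other 2 probe sets stayed near background and gave -0.03 and -0.26, and the difference fell under 2-fold against ORMES-9 alone (-0.78) or with the mean of the gene's probe sets (-0.60). PCDHA5 gave -0.42, while its other probe sets, all dimmer, gave -0.55 to 0.12. PCDHAC2 gave -0.40, and PCDHAC1 was higher by 0.60 while its other probe sets gave -0.34 and -0.05. The alpha genes share their constant exons, so a probe set there can read more than 1 of them.

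**Figure D3:**
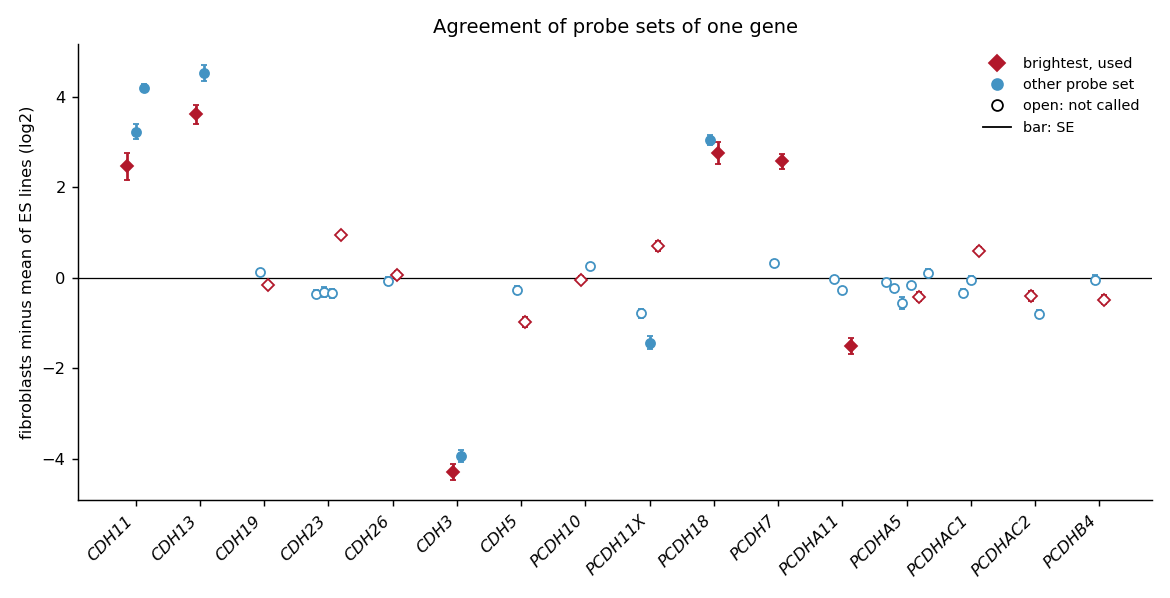
Difference between fibroblasts and the mean of the ES lines (log2, vertical axis) for every probe set of the 16 genes that have several; diamonds are the probe sets used, circles the others, filled symbols are called and bars are SE. All probe sets of CDH11, CDH13, CDH3 and PCDH18 are called the same way, though those of CDH3 are named for the same target. Those of CDH19, CDH23, CDH26, PCDH10, PCDH11X, PCDHA5 and PCDHAC1 lie on both sides of 0.

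Catenins and adaptors tie cadherins to the cell interior. Of 15 listed catenins and junction adaptors 10 were measured. Of these 6 were lower in fibroblasts and none higher, beside 14.5% and 12.9% of all genes. Plakoglobin (JUP), the catenin shared by adherens junctions and desmosomes, was lower by 16.3-fold (-4.03, SE 0.09, limma adjusted p = 2.3e-12), and delta-catenin CTNND2 by 6.50-fold (-2.70). AFDN, which links nectins to actin, fell by 1.87, CTNND1, or p120-catenin, by 1.69 and PKP4 by 1.67. CTNNA2 was called lower too (-1.03), at levels near background, and alpha-catenin CTNNA1 gave 0.38, not called.

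Of the 25 other cadherin superfamily genes listed, 19 were measured. Of these 1 was higher in fibroblasts and 5 were lower, beside 12.9% and 14.5% of all genes. FAT4, a giant atypical cadherin of planar polarity, was higher by a fitted 3.70 (SE 0.15, limma adjusted p = 5.2e-10). That is at least 10.9-fold, a bound because its ES mean was under background. The desmosomal cadherins DSC2 (-5.73, SE 0.12) and DSG2 (-5.12, SE 0.10), which join cells to each other at desmosomes, were lower by at least 34.6-fold and 29.8-fold, bounds because their fibroblast means were under background, with limma adjusted p of 1e-12 and 4.5e-13. RET (-1.79), a receptor with cadherin-like domains, CELSR3 (-1.62) and DCHS1 (-1.24), the partner of FAT4, were lower as well.

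Transcription factors known to drive cadherin switching split. Of 12 measured, 4 were higher in fibroblasts: PRRX1 (6.56, SE 0.07), ZEB2 (4.19, SE 0.49), ZEB1 (3.18, SE 0.15) and TWIST1 (2.51, SE 0.20), with limma adjusted p between 4.6e-15 and 1.2e-05. PRRX1 was at least 87-fold higher, a bound because its ES mean was under background. A further 3 were lower: GSC (-2.99), TCF3 (-2.44) and KLF8 (-1.09). SNAI1, another factor of the switch, gave 0.84 and was not called. Among 9 measured enzymes that cut or mature cadherins, 4 were higher in fibroblasts, namely MMP3 (8.97), ADAM15 (2.30), MMP14 (1.41) and FURIN (1.38), and none was lower. MMP3 was at least 296-fold higher, a bound because its ES mean was under background. ADAM10, a sheddase of classical cadherins, gave -0.77. Beside the counts of both lists, 12.9% of all genes were higher in fibroblasts and 14.5% lower.

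**Figure D4:**
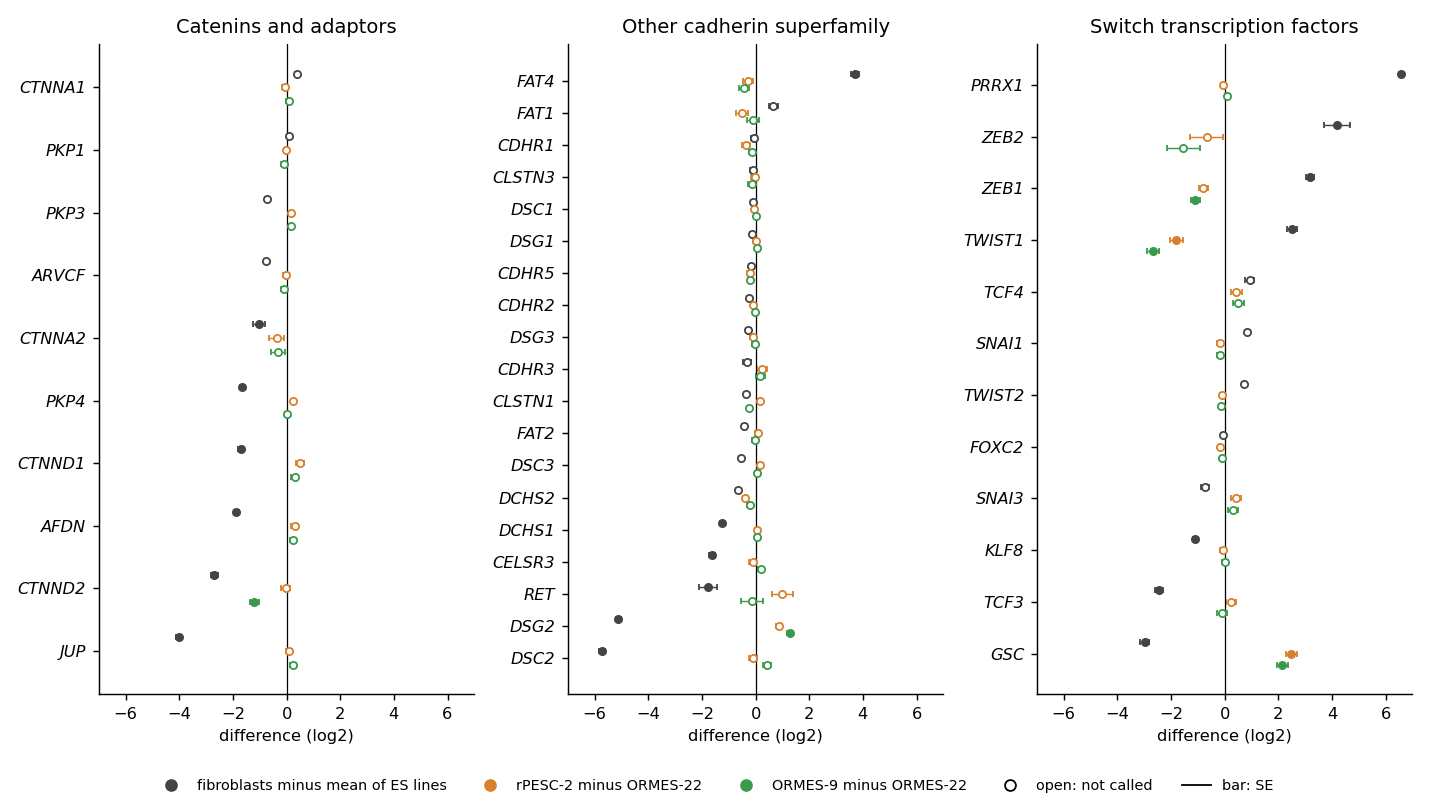
Differences (log2, horizontal axis) for the measured genes of the catenin, cadherin superfamily and switch factor lists. Each gene has points for fibroblasts minus the mean of the ES lines, rPESC-2 minus ORMES-22 and ORMES-9 minus ORMES-22. Filled points are called and bars are SE. For fibroblasts against the ES lines, JUP, DSC2 and DSG2 lie farthest to the left, at -5.73 to -4.03, and PRRX1, at 6.56, farthest to the right.

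Over the 9 ES arrays 32 of the 39 genes (82.1%) had a range under 1, which is under 2-fold, beside 84.0% of all genes. Dim signal narrows a range: of the 31 members with an ES line mean above background 24 (77.4%) had such a range, beside 81.9% of all genes so chosen. The 7 with a wider range were CDH11 (3.10), PCDH18 (2.04), CDH13 (2.02), CDH12 (1.91), PCDHA11 (1.75), CDH3 (1.63) and PCDH7 (1.22). Of these 6, all but CDH12, were also called between fibroblasts and ES lines, where 12.9% of all genes were higher and 14.5% lower. The share called among all genes with a range as wide was not computed, so no link between range and call can be read from this count. The median differences of the 39 genes were -0.06, -0.03 and 0.02 for rPESC-2 against ORMES-22, ORMES-9 against ORMES-22 and ORMES-9 against rPESC-2, against -0.03, -0.01 and 0.02 over all genes.

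In rPESC-2 against ORMES-22 no member was called higher by limma, where 1.03% of all genes were. At an unadjusted limma p under 0.05, 3 members were higher, a rule for which the share of all genes was not computed. By the calling rule 1 was lower, where 0.665% of all genes were. The lower gene was CDH13 (-1.12, SE 0.26, limma adjusted p = 0.034), or 2.17-fold. The rPESC-2 arrays at 5.54 to 6.33 all lay under the ORMES-22 arrays, but ORMES-22 replicate A, at 6.42, was just above the highest of them. The call was lost in 14 of 24 alternatives, among them each that left out a fibroblast array, ORMES-22 replicate B (-0.88, limma adjusted p = 0.13), ORMES-22 replicate C (-1.03, 0.098), rPESC-2 replicate B (-1.14, 0.11), rPESC-2 replicate C (-0.91, 0.10) or ORMES-9 replicate B (-1.12, 0.051), with adjusted p between 0.00075 and 0.20 over all of them. The second CDH13 probe set gave -0.74 (limma adjusted p = 0.086).

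In ORMES-9 against ORMES-22, 3 members were lower, where 0.892% of all genes were, and 1 was higher, where 1.39% of all genes were. CDH11 had the largest difference, -2.46 (SE 0.37, limma adjusted p = 0.0016), or 5.49-fold: ORMES-9 lay at 7.42 to 8.14 and ORMES-22 at 9.73 to 10.52, with no overlap. It stayed called in 24 of 24 alternatives, and the other probe sets gave -2.31 and -1.14, both called. CDH13 gave -1.05 (SE 0.26, limma adjusted p = 0.037) with 5.74 to 6.29 against 6.42 to 7.56, a call lost in 13 of 24 alternatives, among them each left-out fibroblast array (limma adjusted p of 0.060 to 0.061), ORMES-22 replicate B or C (0.13 and 0.10), rPESC-2 replicate B (0.055) and ORMES-9 replicate A or B (0.15 and 0.10).

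PCDHA11 was lower in ORMES-9 than in either other ES line. Against ORMES-22 the difference was -1.03 (SE 0.21, limma adjusted p = 0.013), or 2.04-fold, with 6.68 to 7.04 against 7.64 to 8.07. Against rPESC-2 it was -1.13 (SE 0.21, limma adjusted p = 0.0084), or 2.20-fold, where 1 member was lower against 0.870% of all genes. No member was called higher in ORMES-9 than in rPESC-2 by limma, where 0.764% of all genes were. At an unadjusted limma p under 0.05, 6 members were higher, a rule for which the share of all genes was not computed. Because both differences sit close to the 2-fold minimum, the first fell below it without ORMES-22 replicate A (-0.91), ORMES-9 replicate B (-0.97, limma adjusted p = 0.058) or ORMES-9 replicate C (-0.97, 0.050), and the second without rPESC-2 replicate A (-0.89, limma adjusted p = 0.024). With the mean of the gene's probe sets both were -0.38, and array weights gave -0.99 for the first.

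CDH12, a type II cadherin of brain, was the member higher in ORMES-9 than in ORMES-22. It read 3.59 to 3.64 in fibroblasts, 3.49 to 3.77 in ORMES-22, 3.86 to 3.97 in rPESC-2 and 4.32, 4.37 and 5.40 in ORMES-9, so only ORMES-9 stood above background, and 1 array stood well above the other two. The fitted difference was 1.05 (limma adjusted p = 0.014), and since ORMES-22 was under background the bound is at least 1.36-fold. Without ORMES-9 replicate C it was 0.70, under 2-fold though with an adjusted p of 0.0014, and without ORMES-22 replicate A it was 0.98. With only the 9 ES arrays in the fit its limma adjusted p was 0.052, and with only those lines 0.15.

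CDH11 in rPESC-2 lay between the other lines, but its arrays disagreed. Replicate A, at 9.90, was inside the ORMES-22 range, whereas B and C, at 8.39 and 8.34, were near ORMES-9. The difference from ORMES-22 was -1.36 (SE 0.37, limma adjusted p = 0.057), and without replicate A it was -1.87 (limma adjusted p = 0.0025), a call. Without ORMES-22 replicate A it was -1.62 (limma adjusted p = 0.013), also a call. Leaving out ORMES-22 replicate B or C, or rPESC-2 replicate B or C, gave smaller differences of -1.24, -1.22, -1.12 and -1.09 (limma adjusted p = 0.18, 0.15, 0.23 and 0.15), not called. The second CDH11 probe set, whose rPESC-2 values of 8.18, 8.18 and 8.13 were even, was called lower than ORMES-22 (-1.23, limma adjusted p = 0.0057) and ORMES-9 was called lower than rPESC-2 (-1.08, limma adjusted p = 0.0099). The third, which was near background in rPESC-2 and ORMES-9, gave -0.94 and -0.20 (limma adjusted p = 7e-05 and 0.29) for these comparisons, neither called.

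**Figure D5:**
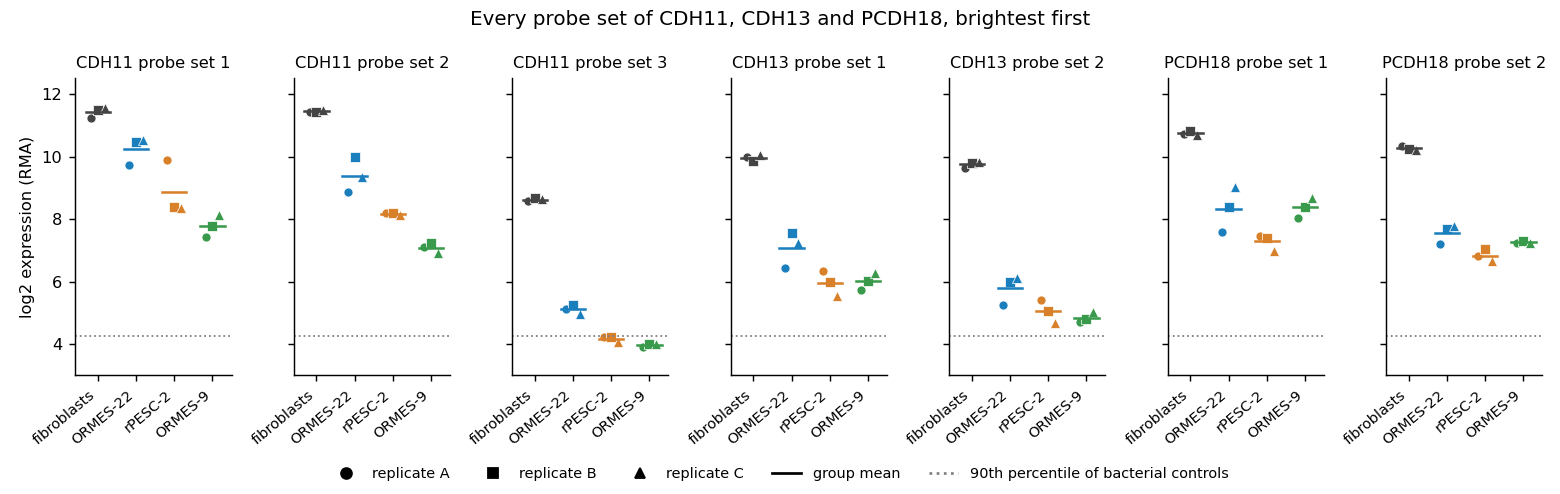
Log2 expression (RMA, vertical axis) of every probe set of CDH11, CDH13 and PCDH18, brightest first, by group; points are arrays, lines are group means (n = 3) and the dotted line is the 90th percentile of bacterial controls. In each CDH11 panel the means fall from fibroblasts through ORMES-22 and rPESC-2 to ORMES-9, and the brightest rPESC-2 replicate A, at 9.90, stands apart from B and C.

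Between the parthenogenetic lines, PCDH18 and PCDH7 had differences of the opposite sign to that of CDH11 (-1.10, limma adjusted p = 0.13). ORMES-9 against rPESC-2 gave 1.08 for PCDH18 (SE 0.29, limma adjusted p = 0.054), with 8.02 to 8.69 against 6.99 to 7.47, and rPESC-2 against ORMES-22 gave -1.05 (limma adjusted p = 0.063); neither was called. Without ORMES-22 replicate A the latter was -1.42 (limma adjusted p = 0.0011), a call, and without ORMES-22 replicate C it was -0.70 (limma adjusted p = 0.15). The former was called without ORMES-22 replicate A or C (limma adjusted p = 0.0041 and 0.012) and had adjusted p of 0.058 to 0.19 without any 1 array of the lines compared. The second PCDH18 probe set gave -0.72 and 0.42 (limma adjusted p = 0.0097 and 0.11), both under 2-fold. PCDH7 was 0.84 higher in ORMES-9 than in rPESC-2 (limma adjusted p = 0.042), under 2-fold. CDH3 was 0.90 higher in ORMES-9 than in ORMES-22 (limma adjusted p = 0.026), also under 2-fold.

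Among the listed switch factors, 1 was called higher and 1 lower in rPESC-2 than in ORMES-22, and 1 higher and 2 lower in ORMES-9. Of all genes 1.03% were higher and 0.665% lower in rPESC-2, and 1.39% and 0.892% in ORMES-9. TWIST1 read 8.28, 8.48 and 8.64 in ORMES-22, 7.03, 6.89 and 6.10 in rPESC-2 and 5.58, 5.52 and 6.29 in ORMES-9, differences of -1.80 and -2.67 from ORMES-22 (limma adjusted p = 0.0013 and 4e-05). ZEB1 was lower in ORMES-9 than in ORMES-22 (-1.09, limma adjusted p = 0.0032), and GSC was higher in both parthenogenetic lines (2.48 and 2.14). Among the catenins, CTNND2 was lower in ORMES-9 than in ORMES-22 and rPESC-2 (-1.21 and -1.17, limma adjusted p = 0.00079 and 0.0012), and no listed cleavage enzyme was called between ES lines. DSG2 was higher in ORMES-9 than in ORMES-22 by 1.27 (limma adjusted p = 4.7e-05), while its other 3 probe sets gave -0.06 to 0.22.

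Markers of other cell types also differed between the lines, and their part in the cadherin differences was not tested. The mean log2 value of the 7 fibroblast markers was 7.28 to 7.45 in ORMES-22, 6.82 to 7.23 in rPESC-2 and 7.09 to 7.29 in ORMES-9, against 10.51 to 10.62 in fibroblasts. Of the 7, LUM and FAP were at or under background in each ES line. The mean includes DCN and THY1, whose probe sets used here were not higher in fibroblasts (-0.43 and -0.31 against the mean of the ES lines). rPESC-2 replicate A, the array with the high CDH11 value, had the highest mean of its line. So did ORMES-9 replicate C, with the highest CDH11 value of ORMES-9 (8.14). ORMES-22 replicate C, with the highest CDH11 value of the ES arrays (10.52), had the lowest mean of its line. COL1A1 was lower in rPESC-2 and ORMES-9 than in ORMES-22 by less than 2-fold (-0.82 and -0.90, limma adjusted p = 0.011 and 0.0044). Whether RNA of the mouse feeder cells reached the arrays was not tested. Of 6 endoderm markers 4 were higher in rPESC-2 than in ORMES-22 (SOX17, FOXA2, GATA6 and CER1) and 3 in ORMES-9, beside 1.03% and 1.39% of all genes. Their list means were 5.95 to 6.51 in ORMES-22, 7.83 to 8.01 in rPESC-2 and 7.27 to 7.77 in ORMES-9. No ES marker was called between ES lines. Of the other lists, the mesoderm and muscle list (7 measured) had 1 gene lower in each parthenogenetic line, beside 0.665% of all genes in rPESC-2 and 0.892% in ORMES-9. The endothelial list (7) had TEK lower in ORMES-9 by 2.29. The neural (3), trophoblast (5), keratinocyte (1) and melanocyte (4) lists had none called between lines.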

How the data were processed

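RNA from 12 cultures was hybridised to a rhesus macaque Affymetrix array, 1 array a culture. The deposited values are log2 expression levels that the authors made with RMA, per the submitters' processing notes; its version is not given in the sources used here. RMA commonly includes quantile normalisation, which makes array distributions alike. Of 52865 features 99 control features were left out. Genes were named from the platform annotation, which gave 1 symbol to 24956 probe sets, several to 361 and none to 27449; 1 matching gene was left out of the set. All 39 symbols matched the RefSeq gene table, 38 by gene ID and 1 by symbol.

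A group means model was fitted with limma 3.58.1 (R 4.3.3; lmFit, eBayes) over all 12 arrays and 52766 probe sets, with Benjamini-Hochberg adjustment, and tested on simulated data. Tables and plots used Python 3.11.15, pandas 2.3.3, numpy 2.4.6 and matplotlib 3.10.9. Arrays give no counts, so 3 arrays a group limit the precision. No arrays held identical values. Named genes were those called in at least 1 comparison, the detected rest by value, and up to 6 called genes of each list. The members and lists were chosen with earlier results of these data known. The alternatives changed the arrays fitted, the filter, scaling, moderation, weights, fold minimum, probe set of a gene, and the replicate block.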

Additional observations from a re-analysis of the deposited data

Results flagged for a closer look

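PCDHA11 stood out because its differences from ORMES-22 were unlike in the parthenogenetic lines: -1.03 in ORMES-9 and 0.11 in rPESC-2. The difference between them was -1.13 (limma adjusted p = 0.0084), and all 3 ORMES-9 arrays, at 6.68 to 7.04, lay under all 3 rPESC-2 arrays, at 7.67 to 8.43. Without rPESC-2 replicate A the difference was -0.89, under 2-fold, and the other probe sets of the gene were near background in every group.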

How the results depend on the processing

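Between fibroblasts and ES lines, CDH3, CDH10, CDH11, CDH13, PCDH7, PCDH18, PCDH20 and PCDHB11 kept their direction and call in 25 of 25 alternatives and PCDHA11 in 22. With no minimum fold 12 of the genes were higher and 15 lower in that comparison. The share of all genes without the minimum was not computed, so these counts cannot be judged against it. A fit of only the groups compared is the reported one for fibroblasts against ES lines. For rPESC-2 against ORMES-22, the count of lower genes was 0 with only the groups compared, only the 9 ES arrays, a 3-fold minimum or the probe set of largest variance, 3 with dim probe sets left out or a trended variance, 2 with array weights or no minimum fold, and 0 to 3 with a replicate left out. For ORMES-9 against ORMES-22, higher genes numbered 0 with only the groups compared, only the 9 ES arrays or a 3-fold minimum, 2 with no minimum fold and 0 to 2 with a replicate left out, and lower genes 1 with a 3-fold minimum and 1 to 3 with a replicate left out. For ORMES-9 against rPESC-2, higher genes numbered 1 with only the groups compared, dim probe sets left out, a trended variance or array weights, 2 with no minimum fold and 0 to 1 with a replicate left out, and lower genes 2 with array weights, 0 with a 3-fold minimum or the mean of a gene's probe sets and 0 to 1 with a replicate left out. No result reversed. Fewer samples or a higher minimum remove calls by construction; for the rest the cause was not tested.

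Over 18 pairs of same-lettered replicates the correlations of their deviations ran from -0.31 to 0.27 and 6 exceeded 0.1. No pairs of unlike letters were set beside them, so they cannot decide whether the letters pair the samples. For PCDHA11 replicate A was the highest array of every group. In ORMES-9 against ORMES-22 the replicate block took its SE from 0.21 to 0.10 and its limma adjusted p from 0.013 to 0.00028. The SE of CDH11 rose there from 0.37 to 0.40. With the replicate block, 6 genes were higher and 3 lower in fibroblasts, 0 were lower in rPESC-2 against ORMES-22, 1 was higher and 2 lower in ORMES-9 against ORMES-22, and 1 was lower in ORMES-9 against rPESC-2. Genes near the bacterial controls, such as CDH12 and the PCDHB genes at background, have differences that dim signal compresses.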
